A study of Mus musculus with 8 samples.

Results

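SOX9, SOX2, NFIA, NFIB, NFIX, ZBTB20, RORB, LHX2 and PAX6, transcription factors that specify or mark astrocytes, were looked up by gene symbol in a table of read counts from cultured mouse astrocytes. All 9 factors were among the 13937 genes of the table, and all 9 passed the filter on low counts, which left 13509 genes for testing. The cells were primary astrocytes from the brains of C57BL/6 pups at postnatal day 1, either wild type (WT) or lacking Response Gene to Complement 32 (RGC-32 KO, gene symbol Rgcc). Each genotype was left unstimulated (control) or stimulated for 24 h with TGF-β (10 ng/ml), with 2 biological replicates in each of the 4 groups and 8 libraries in all. All cultures had been grown for weeks in serum, shaken to remove oligodendrocyte precursors and neurons, and starved of serum overnight, so the controls shared these steps. The sources used here do not name a driver or cell type for the deletion, and the number of pups behind a culture is not stated.

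Astrocytes arise from radial glia, the neural progenitors of the embryonic brain, when a gliogenic program is switched on. SOX9 starts that program and induces NFIA, and the nuclear factor I proteins NFIA, NFIB and NFIX then bind and activate astrocyte genes. SOX2, PAX6 and LHX2 belong to the progenitor state and persist in part in mature astrocytes, while the zinc finger repressor ZBTB20 and the nuclear receptor RORB are also prominent in the astrocyte lineage. TGF-β acts through SMAD proteins and is one of the signals that induce astrocyte differentiation and reactivity.

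None of the 9 factors passed the main threshold in any comparison, set at 0.6 or more on the log2 scale in either direction and a Benjamini-Hochberg adjusted p under 0.05 in edgeR's quasi-likelihood test. Among all genes tested, 13.4% passed it for TGF-β against control in WT cells, and 11.5% passed it in the KO. DESeq2 and limma-voom placed 0 of the 9 past it as well. At an unadjusted p under 0.05 in edgeR stood 7 of 9 factors in WT, where 44.3% of all genes did, and 5 of 9 in KO, where 41.2% did. Smaller changes were resolved, and they are given below as the log2 ratio of TGF-β over control, that is, the fold change on the log2 scale. SOX9 and SOX2 fell in both genotypes and LHX2 fell in WT, by 1.19-fold to 1.37-fold, at an adjusted p under 0.05. The other 6 factors did not pass the test in either genotype in this fit.

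The libraries held between 14920561 and 18956038 counts. The targeted gene, Rgcc, was at 5.16 and 5.61 CPM (counts scaled to library size with TMM factors, the trimmed mean of M values) in WT control, 11.9 and 23.1 CPM in WT TGF-β, 3.89 and 1.66 CPM in KO control and 4.29 and 1.72 CPM in KO TGF-β libraries. It was thus low but not 0 in the KO libraries, and every KO library was below every WT library, although the difference did not pass the test without TGF-β (edgeR adjusted p = 0.780) or with it (adjusted p = 0.133). All 10 astrocyte markers examined were detected. Of 10 neuronal markers, 5 (RBFOX3, SNAP25, DCX, SLC17A7 and NEUROD1) were not among the listed genes. The other 5 (TUBB3, SYT1, STMN2, MAP2 and GAD1) were, with summed levels of 280 to 397 CPM. Microglial and meningeal fibroblast markers were present in every library, with summed levels of 1165 to 1666 CPM and 4623 to 11682 CPM.

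The factors differed widely in level. Compared per transcript length, in FPKM, which divides fragments by the length of the transcript and the depth of the library, SOX2 was highest with a mean of 99.2 FPKM over the 8 libraries and RORB lowest with 0.644 FPKM. NFIX followed SOX2 with 65.9 FPKM, then SOX9 with 49.6, LHX2 with 19.5, NFIB with 18.5, NFIA with 11.3, PAX6 with 9.66 and ZBTB20 with 3.81 FPKM. The ranges of NFIX and SOX9, of LHX2 and NFIB, and of NFIA and PAX6 overlapped over the 8 libraries. Within libraries NFIX was above SOX9 in 8 of 8 and NFIA above PAX6 in 8 of 8, and LHX2 was above NFIB in 4 of 8. The ranges of the other neighbours did not overlap. The lowest place depended on the length used, since with CPM divided by all annotated exon bases of the gene, in kb, ZBTB20 was at 0.49 and RORB at 0.607. SOX2 stood above at least 95.7% of the genes of the FPKM table in every library, and RORB above at most 30.6%. The most even level was that of NFIX, from 63.2 to 69.4 FPKM, and the widest relative range that of SOX9, from 37.5 to 64.7 FPKM.

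**Figure D1:**
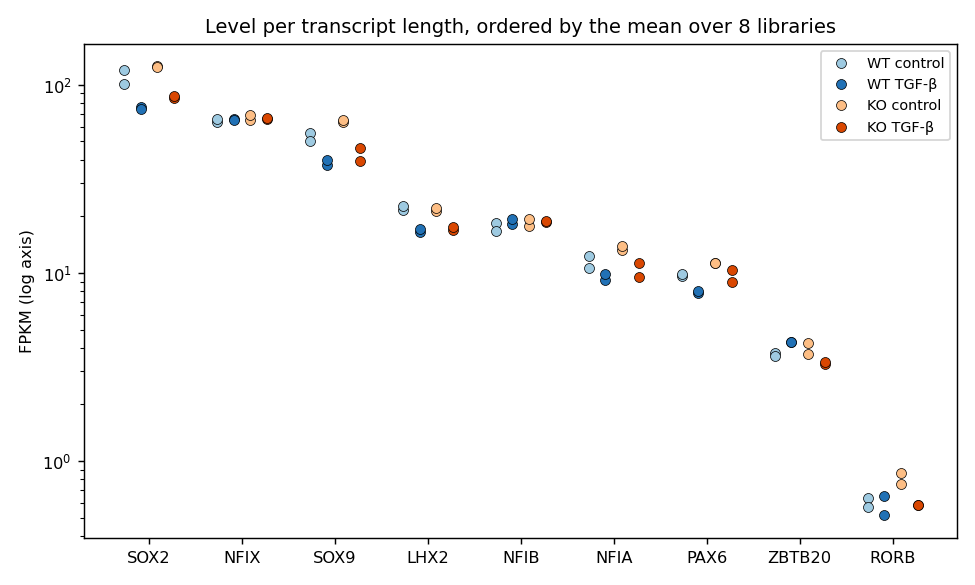
Level of each factor per transcript length in FPKM on a log axis, with 1 point for each of the 8 libraries colored by group and the factors ordered by their mean. SOX2 lies highest, with a mean of 99.2 FPKM, and RORB lowest at 0.644 FPKM. The TGF-β points of SOX2, SOX9, LHX2, NFIA and PAX6 lie below the control points of the same genotype.

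The first question was how the SOX factors responded to TGF-β. SOX9 (chr11:112782224-112787760, plus strand, GRCm38), a SoxE protein that initiates gliogenesis, was at 243 and 225 CPM in WT control and 179 and 193 CPM in WT TGF-β libraries. In the KO it was at 276 and 280 CPM in control and 191 and 215 CPM in TGF-β libraries. The control libraries were above the TGF-β libraries in both genotypes, with no overlap, as was true of 33.7% of all genes in WT and 32.9% in KO. The log2 ratio of SOX9 was -0.33 in WT (SE 0.08, 1.26-fold lower, edgeR adjusted p = 0.0134) and -0.45 in KO (SE 0.08, 1.37-fold lower, adjusted p = 0.0044). The WT call did not hold without WT control replicate 1 (log2 ratio -0.27, adjusted p = 0.0689) or without WT TGF-β replicate 1 (-0.27, adjusted p = 0.0941), whereas the KO call held when any 1 library was left out. In bulk RNA, fewer cells expressing a gene and less RNA of it per cell cannot be told apart.

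SOX2, a SoxB1 protein that maintains neural progenitors, was at 247 and 287 CPM in WT control and 201 and 203 CPM in WT TGF-β libraries. Its KO levels were 301 and 303 CPM in control and 231 and 229 CPM in TGF-β libraries. Replicates lay close together everywhere except in WT control, and the groups did not overlap. SOX2 fell by 0.40 on the log2 scale in WT (SE 0.07, 1.32-fold lower, edgeR adjusted p = 0.00583) and by 0.39 in KO (SE 0.07, 1.31-fold lower, adjusted p = 0.00727). It was the only one of the 9 factors whose decrease kept an adjusted p under 0.05 in both genotypes in every alternative fit with Benjamini-Hochberg adjustment and with any 1 library left out, with log2 values between -0.55 and -0.30 in WT and between -0.54 and -0.39 in KO. Sox2 is a gene of 1 exon at chr3:34650405-34652461 on the plus strand (GRCm38) and lies within Sox2ot, a long noncoding RNA gene of the same strand with which it shares 0 exon bases. SOX2OT was at 37.8 ± 0.67 CPM (SD, n = 2) in WT control and 30.2 ± 1.93 CPM in WT TGF-β libraries, and fell by 0.33 on the log2 scale in WT (edgeR adjusted p = 0.0172), a call lost without WT control replicate 1 (0.0672), without WT TGF-β replicate 1 (0.11) and with DESeq2 (0.086). In KO its log2 ratio was -0.23 (adjusted p = 0.0691). The KO value was -0.31 in edgeR with upper quartile scaling (adjusted p = 0.0219). In limma on FPKM with a pseudocount of 1 it was -0.27 (adjusted p = 0.038). The difference in log2 ratio between the genotypes, WT minus KO, was -0.10 (95% interval -0.36 to 0.16).

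The 3 members with an adjusted p under 0.05 in WT compare with 32.9% of all genes at that level in either direction and 14.3% downward, and the 2 of 9 in KO with 28.4% and 11.8%. The scaling bears on these shares. With upper quartile scaling in place of TMM, 21.7% of all genes fell and 13.8% rose in WT, where 14.3% and 18.6% did so under TMM, and 18.6% fell and 12.1% rose in KO, where 11.8% and 16.6% did under TMM. Under that scaling 4 of the 9 factors in WT and 5 in KO had an adjusted p under 0.05, all of them lower with TGF-β. SOX2 and SOX9 together made up 55.7 ± 1.53% (SD, n = 2) of the summed FPKM of the 9 factors in WT control and 48.0 ± 0.11% in WT TGF-β libraries. In KO the share was 58.0 ± 0.98% in control and 50.5 ± 0.40% with TGF-β. The ratio of SOX2 to SOX9 on this scale stayed between 1.82 and 2.39 over all libraries, and SOX2 was above SOX9 in every library.

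**Figure D2:**
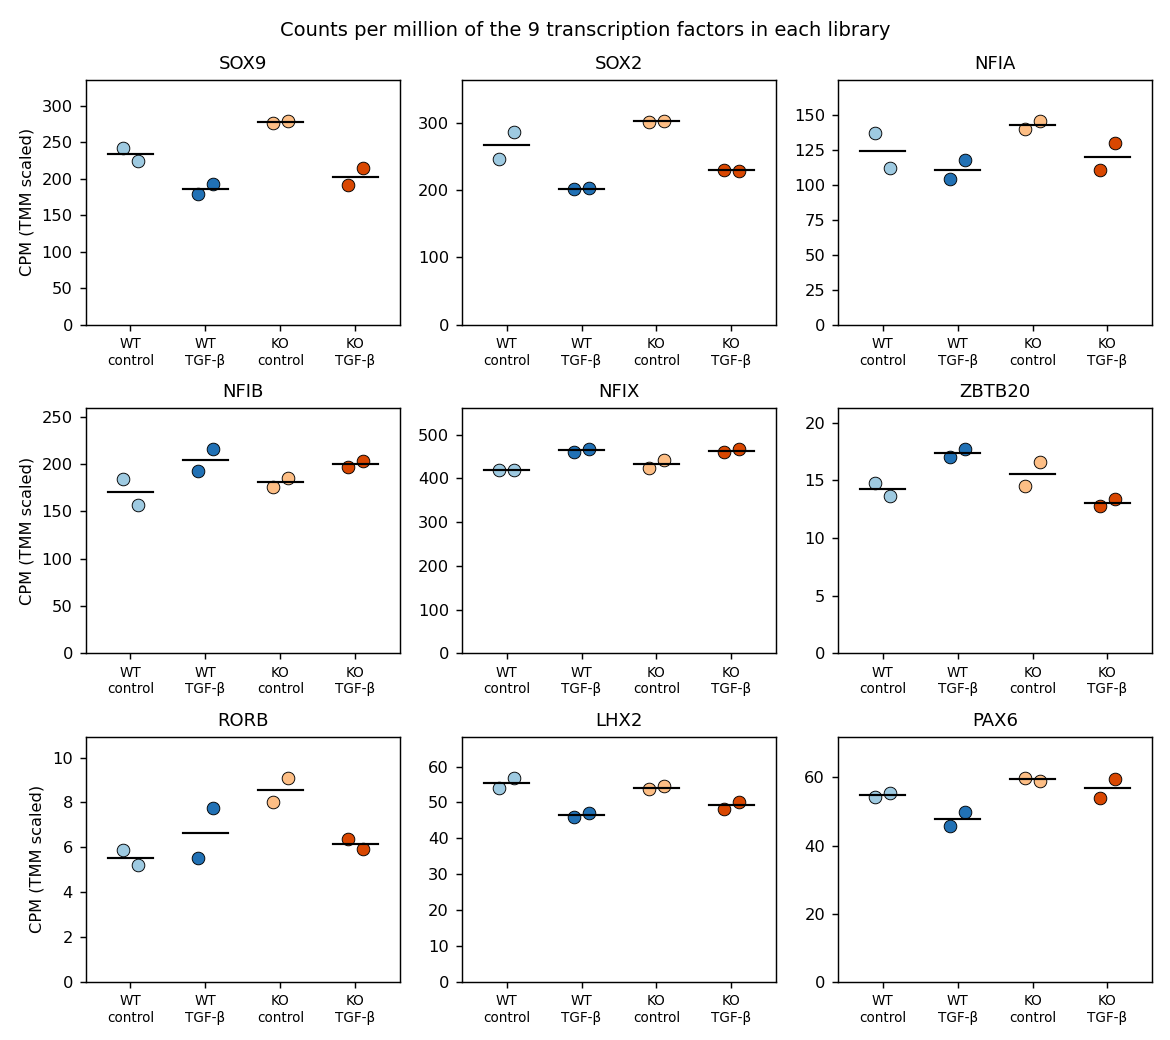
TMM-scaled CPM of each of the 9 factors, with 1 point for each library, a line at the mean of the 2 replicates and every vertical axis starting at 0. For SOX9 and SOX2 both TGF-β points lie below both control points in each genotype, and for ZBTB20 the TGF-β points lie above control in WT and below it in KO.

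The homeodomain factors LHX2 and PAX6 had smaller estimates than SOX9 and SOX2 in both genotypes. LHX2 (chr2:38339281-38369733, plus strand), a LIM homeodomain protein of cortical and hippocampal progenitors, was at 54.0 and 56.9 CPM in WT control and 45.9 and 47.1 CPM in WT TGF-β libraries. The KO libraries held 53.7 and 54.5 CPM in control and 48.2 and 50.1 CPM in TGF-β libraries. Both TGF-β libraries were below both controls in each genotype. The log2 ratio was -0.25 in WT (SE 0.06, edgeR adjusted p = 0.0134) and -0.14 in KO (SE 0.06, adjusted p = 0.116). The WT call depended on single libraries, with an adjusted p of 0.0658 when WT control replicate 2 was left out (log2 ratio -0.23), 0.0843 when WT TGF-β replicate 1 was (-0.23) and 0.0535 when WT TGF-β replicate 2 was (-0.29). With DESeq2 in place of edgeR it was also lost (adjusted p = 0.116). In KO, LHX2 passed at an adjusted p under 0.05 in other fits, with a log2 ratio of -0.22 in edgeR with upper quartile scaling (adjusted p = 0.0277) and of -0.33 in limma on FPKM with a pseudocount of 1 (adjusted p = 0.00382).

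PAX6 (chr2:105668900-105697364, plus strand), a paired-box protein of radial glia, was at 54.2 and 55.4 CPM in WT control and 45.8 and 49.8 CPM in WT TGF-β libraries. In the KO it was at 60.0 and 58.8 CPM in control and 54.0 and 59.5 CPM in TGF-β libraries. In CPM the groups separated in WT and overlapped in KO, while in FPKM the TGF-β libraries were below the controls in both genotypes. PAX6 did not pass the test, with a log2 ratio of -0.20 in WT (95% interval -0.36 to -0.04, edgeR adjusted p = 0.0633) and -0.07 in KO (-0.23 to 0.10, adjusted p = 0.518). With upper quartile scaling in edgeR the WT value was -0.28 (adjusted p = 0.0154), and in limma on FPKM with a pseudocount of 1 it was also -0.28 (adjusted p = 0.0257).

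Promoter windows of 250 bases before the RefSeq start (GRCm38.p6) were matched for 7 of the 9 factors, in 13 windows, and 2 are shown. SOX2 and LHX2 both decreased in WT, and the windows shown for them differ in the motif searched. The motif was CAGAC on either strand, the short sequence that SMAD proteins recognize, set in capitals. The Sox2 window at chr3:34649745-34649994 (plus strand, 72.0% G or C) holds 0 matches, and the Lhx2 window shown, at chr2:38339031-38339280 (plus strand, 72.8% G or C), holds 2. Another Lhx2 window, not shown, lies at chr2:38351058-38351307 and holds 0 matches, as the Sox2 window does. The RefSeq start of Sox2 lies upstream of the start given above. The sequences are written in the direction of transcription.
Sox2: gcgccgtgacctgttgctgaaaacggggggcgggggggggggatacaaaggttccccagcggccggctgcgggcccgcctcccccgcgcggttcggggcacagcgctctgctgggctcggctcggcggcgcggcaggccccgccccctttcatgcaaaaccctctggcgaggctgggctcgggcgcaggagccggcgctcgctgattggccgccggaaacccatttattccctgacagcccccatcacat
Lhx2: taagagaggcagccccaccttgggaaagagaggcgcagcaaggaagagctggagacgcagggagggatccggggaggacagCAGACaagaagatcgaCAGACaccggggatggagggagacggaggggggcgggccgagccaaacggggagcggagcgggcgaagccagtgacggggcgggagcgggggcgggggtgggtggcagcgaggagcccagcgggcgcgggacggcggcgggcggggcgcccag
The motif was present in 9 of the 13 windows and in 40.9% of 10849 promoters of the same length. The 13 windows came from 7 factors, several for some of them. Only the first listed window of each gene entered the share of all promoters. The shares for any of the motifs are therefore not directly comparable. The NFI motif TTGGC, on either strand, was present in 5 of the 13 windows, the printed ones of Sox2 and Lhx2 included, and in 45.2% of all promoters. The SOX motif ATTGT was in 4 of the 13 windows, in neither of those printed, and in 18.4% of all promoters, and no window held overlapping matches of different motifs. A match of letters is not a binding site, and its absence from these windows says nothing of the factor elsewhere.

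The 3 nuclear factor I genes had estimates of both signs, and none passed the test on counts. NFIA (chr4:97772734-98118874, plus strand), the factor induced by SOX9 at the onset of gliogenesis, was at 136 and 112 CPM in WT control and 104 and 118 CPM in WT TGF-β libraries. Its KO levels were 140 and 146 CPM in control and 110 and 130 CPM in TGF-β libraries. In CPM the groups overlapped in WT and not in KO, and replicates of 3 of the 4 groups lay well apart. In FPKM the TGF-β libraries were below the controls in both genotypes. The log2 ratio was -0.16 in WT (95% interval -0.43 to 0.10, edgeR adjusted p = 0.310) and -0.25 in KO (-0.52 to 0.02, adjusted p = 0.141). In limma on FPKM with a pseudocount of 1 NFIA passed in KO, with -0.35 (adjusted p = 0.0402). With 1 library left out its WT value ranged from -0.32 to -0.01.

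NFIB (chr4:82290173-82705750, minus strand), which acts with NFIA in astrocyte differentiation, was at 184 and 156 CPM in WT control and 193 and 216 CPM in WT TGF-β libraries. The KO libraries held 176 and 185 CPM in control and 197 and 203 CPM in TGF-β libraries. Every TGF-β library was above both controls of its genotype, as for 35.4% of all genes in WT and 34.3% in KO. NFIB had a log2 ratio of 0.26 in WT (95% interval 0.06 to 0.47, edgeR adjusted p = 0.0539) and 0.15 in KO (-0.06 to 0.35, adjusted p = 0.252), and neither passed the test. The WT value depended on single libraries and on the scale, being 0.39 without WT control replicate 1 (edgeR adjusted p = 0.0221), 0.13 without WT control replicate 2 (0.335), 0.16 without WT TGF-β replicate 2 (0.322) and 0.10 in limma on FPKM (0.269).

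NFIX (chr8:84699876-84800344, minus strand), the nuclear factor I gene with the highest level here, was at 419 CPM in both WT control libraries and at 461 and 467 CPM in WT TGF-β libraries. In the KO it was at 423 and 442 CPM in control and 461 and 467 CPM in TGF-β libraries. In CPM the groups did not overlap, and the fitted difference was 10.8% of the control level in WT and 7.29% in KO. The log2 ratio was 0.15 in WT (95% interval 0.02 to 0.28, edgeR adjusted p = 0.0832) and 0.10 in KO (-0.03 to 0.23, adjusted p = 0.219). In limma on FPKM with a pseudocount of 1 it was 0.02 in WT (adjusted p = 0.740) and -0.01 in KO (adjusted p = 0.883). The WT groups overlapped in FPKM. On that scale NFIX made up 52.4 to 56.4% of the summed FPKM of the 4 nuclear factor I genes in every library. NFIA made up 9.70 ± 0.85% (SD, n = 2) in WT control and 7.70 ± 0.41% with TGF-β, and 11.0 ± 0.0011% in KO control and 8.48 ± 0.83% with TGF-β. NFIC, the fourth gene of the family, took 20.8 ± 1.01% in WT control and 23.9 ± 0.18% with TGF-β, and 19.4 ± 1.01% and 22.3 ± 0.16% in KO. The summed level stayed between 116 and 126 FPKM in all libraries.

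**Figure D3:**
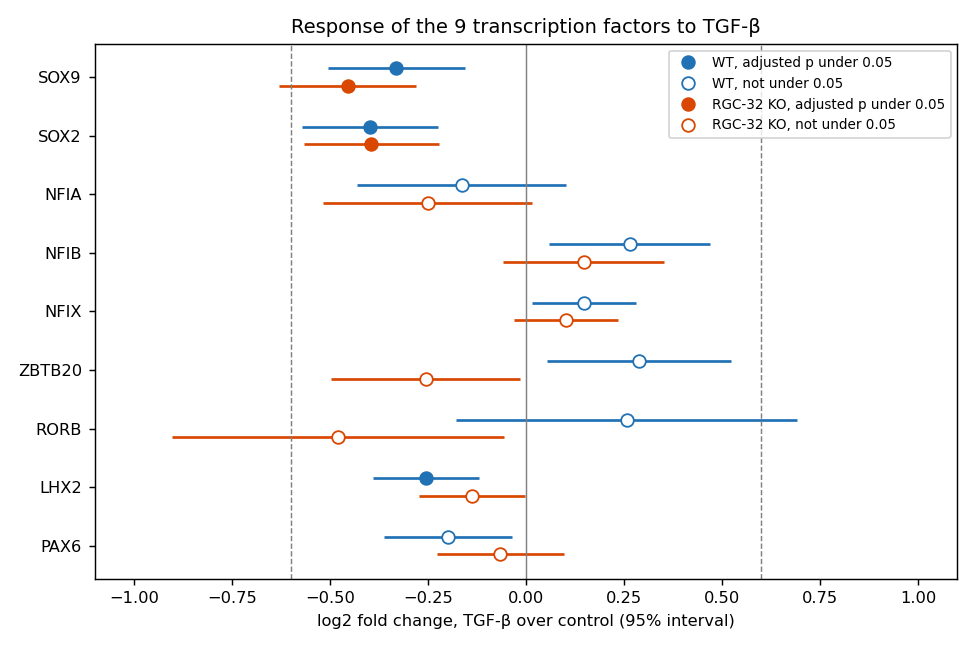
Log2 ratio of TGF-β over control for each factor in WT and RGC-32 KO, with 95% intervals, filled points for an adjusted p under 0.05 and dashed lines at the threshold of 0.6 in either direction. The filled points are SOX9 and SOX2 in both genotypes and LHX2 in WT, all below 0, and no point reaches a dashed line.

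ZBTB20 and RORB were the factors with the lowest counts and with estimates of opposite sign in the genotypes. ZBTB20 (chr16:42875881-43642602, plus strand), a zinc finger repressor that promotes astrocyte formation, was at 14.8 and 13.7 CPM in WT control and 17.0 and 17.7 CPM in WT TGF-β libraries. Its KO levels were 14.6 and 16.6 CPM in control and 12.7 and 13.3 CPM in TGF-β libraries. The TGF-β libraries were thus above both controls in WT and below both in KO, and 1.4% of all genes had responses that separated in opposite directions in this way. Its log2 ratio was 0.29 in WT (95% interval 0.05 to 0.52, edgeR adjusted p = 0.0612) and -0.26 in KO (-0.50 to -0.02, adjusted p = 0.103), so neither passed the test. With upper quartile scaling the KO value was -0.34 (edgeR adjusted p = 0.0402).

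RORB (chr19:18930605-19111196, minus strand), a retinoid-related orphan receptor, was at 5.87 and 5.19 CPM in WT control and 5.53 and 7.74 CPM in WT TGF-β libraries. The KO libraries held 8.04 and 9.12 CPM in control and 6.37 and 5.95 CPM in TGF-β libraries. The WT groups overlapped, with 1 TGF-β library above the rest, and the KO groups did not. The log2 ratio was 0.26 in WT (95% interval -0.18 to 0.69, edgeR adjusted p = 0.329) and -0.48 in KO (-0.90 to -0.06, adjusted p = 0.0862). In KO it was -0.56 with upper quartile scaling (edgeR adjusted p = 0.0487) and -0.19 in limma on FPKM with a pseudocount of 1 (adjusted p = 0.0442). Without WT TGF-β replicate 2 the WT value was -0.01, and on the FPKM scale it was also just below 0 (-0.02 with a pseudocount of 1 and -0.05 with a pseudocount of 0.1).

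The next comparison was between genotypes, and it used the same libraries as the comparisons above. Without TGF-β, 0 of the 9 factors passed the threshold in edgeR, DESeq2 or limma-voom, against 0.037% of all genes in edgeR, and 3 of 9 had an unadjusted p under 0.05 in edgeR, against 6.84% of all genes. SOX9 was at 234 ± 12.8 CPM (SD, n = 2) in WT and 278 ± 2.67 CPM in KO control libraries, a log2 difference of WT minus KO of -0.25 (SE 0.08, edgeR adjusted p = 0.6). RORB was at 5.53 ± 0.48 CPM in WT and 8.58 ± 0.76 CPM in KO, a log2 difference of -0.64 (SE 0.18, edgeR adjusted p = 0.575). SOX2 was at 267 ± 28.4 CPM in WT and 302 ± 1.93 CPM in KO, a log2 difference of -0.18 (SE 0.07, edgeR adjusted p = 0.719). Both WT control libraries were below both KO control libraries for 6 of the 9 factors (SOX9, SOX2, NFIA, NFIX, RORB and PAX6) and above them for 0, where 15.5% of all genes were lower and 17.4% higher. LHX2, at 55.5 ± 2.10 CPM in WT and 54.1 ± 0.61 CPM in KO, had the one estimate above 0, a log2 difference of 0.04 (95% interval -0.10 to 0.17). The summed astrocyte markers were also lower in the WT control libraries, at 4546 to 4796 CPM against 5227 to 5878 CPM in KO, while the summed meningeal fibroblast markers were higher in WT, at 5444 to 6809 CPM against 4623 to 4884 CPM, and the part of either in these differences was not tested.

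With TGF-β in both genotypes, 0 of 9 again passed with any of the 3 tools, against 0.0444% of all genes in edgeR, and 3 of 9 had an unadjusted p under 0.05 in edgeR, against 11.7% of all genes. ZBTB20 was at 17.4 ± 0.48 CPM in WT and 13.0 ± 0.43 CPM in KO, a log2 difference of 0.41 (SE 0.10, edgeR adjusted p = 0.217). PAX6 was at 47.8 ± 2.81 CPM in WT and 56.8 ± 3.90 CPM in KO, a log2 difference of -0.25 (SE 0.07, edgeR adjusted p = 0.250). SOX2 was at 202 ± 1.49 CPM in WT and 230 ± 1.23 CPM in KO, a log2 difference of -0.18 (SE 0.07, edgeR adjusted p = 0.4). ZBTB20 was higher in both WT libraries, while SOX2, LHX2 and PAX6 were lower in both, and the remaining 5 overlapped. Among all genes 22.4% were higher and 23.9% lower in both WT libraries. The summed astrocyte markers were at 3499 to 3626 CPM in WT and 4313 to 4606 CPM in KO TGF-β libraries, the ependymal markers at 334 to 368 and 403 to 426 CPM, and the meningeal fibroblast markers at 10219 to 11682 and 7976 to 7992 CPM, and their part was again not tested.

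Whether the genotypes differed in their response to TGF-β was tested with an interaction term. No factor passed the threshold in edgeR, as for 0 of all 13509 genes (0%), DESeq2 and limma-voom also called 0 of the 9, and 2 of 9 had an unadjusted p under 0.05, against 2.82% of all genes. They were ZBTB20, with a difference in log2 ratio of WT minus KO of 0.54 (SE 0.15, edgeR adjusted p = 1.00), and RORB, with 0.74 (SE 0.26, adjusted p = 1.00). For SOX2 the difference was -0.004 (95% interval -0.25 to 0.24) and for SOX9 it was 0.12 (-0.12 to 0.37).

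Of the close relatives of the 9 factors, SOX8 passed the threshold in both genotypes in edgeR and SOX3 in WT. Of 8 such relatives 7 were tested (LHX9 was not), and at an adjusted p under 0.05 in edgeR 2 rose and 3 fell in WT, and 2 rose and 2 fell in KO. The shares over all genes were 18.6% up and 14.3% down in WT, and 16.6% up and 11.8% down in KO. The median log2 ratio of the 7 was -0.07 in WT and -0.37 in KO, against -0.005 and 0.003 for all genes. SOX8, a SoxE protein and the near relative of SOX9, was at 14.8 and 15.8 CPM in WT control and 55.8 and 57.9 CPM in WT TGF-β libraries. In the KO it was at 15.4 and 19.4 CPM in control and 56.1 and 63.4 CPM in TGF-β libraries. Each TGF-β library thus lay far above the controls of either genotype. The log2 ratio of SOX8 was 1.89 in WT (SE 0.11, edgeR adjusted p = 9.23e-05) and 1.78 in KO (SE 0.11, adjusted p = 0.000129). Per transcript length, SOX9 was 10.1 to 12.9 times as high as SOX8 in the 4 control libraries and 2.30 to 2.82 times as high in the 4 TGF-β libraries.

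Of the SoxB relatives of SOX2, SOX1 and SOX21 fell in both genotypes on counts and SOX3 in WT. SOX1, a SoxB1 protein, had log2 ratios of -0.55 in WT (SE 0.09, edgeR adjusted p = 0.00301) and -0.37 in KO (SE 0.09, adjusted p = 0.0165), and SOX21, a SoxB2 protein, -0.37 (SE 0.09, adjusted p = 0.0141) and -0.41 (SE 0.09, adjusted p = 0.0103). SOX3 was at most 1.49 CPM in any library, and passed the threshold in WT with -2.54 (SE 0.59, adjusted p = 0.0137), with -1.05 in KO (adjusted p = 0.135). In limma on FPKM, SOX3 in KO was at -0.42 with a pseudocount of 1 (adjusted p = 0.00504) and at -1.12 with 0.1 (adjusted p = 0.00719). In WT it was at -0.49 with a pseudocount of 1 (adjusted p = 0.00311). The calls on counts rested on single libraries in part. In KO that of SOX1 was lost without any 1 of the 4 KO libraries (edgeR adjusted p from 0.0562 to 0.113) and that of SOX21 without KO control replicate 2 (0.0546) or TGF-β replicate 1 (0.0767). In WT the SOX21 call was lost without control replicate 2 (0.0681) or either TGF-β replicate (0.0814 and 0.058), and the SOX3 call without control replicate 2 (0.0713) or TGF-β replicate 2 (0.0723). SOX2 nevertheless stayed 9.94 to 11.5 times as high as SOX1 in FPKM in every library. NFIC rose from 185 and 167 CPM to 237 and 248 CPM in WT (log2 ratio 0.46, SE 0.07, edgeR adjusted p = 0.00246) and from 174 and 164 CPM to 213 and 226 CPM in KO (log2 ratio 0.38, SE 0.07, adjusted p = 0.00658), the KO call being lost without KO TGF-β replicate 2 (0.0692). RORA and SOX10 did not pass the test.

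Among 25 other transcription factors of astrocytes and radial glia, 4 rose and 9 fell in WT and 3 rose and 8 fell in KO at an adjusted p under 0.05 in edgeR, with median log2 ratios of -0.17 and -0.10. Of all genes 18.6% rose and 14.3% fell in WT, and 16.6% rose and 11.8% fell in KO. GLI2, an effector of hedgehog signaling, rose past the threshold in both genotypes on counts, with log2 ratios of 0.62 in WT (adjusted p = 0.00284) and 0.70 in KO (adjusted p = 0.00237). KLF15, a Krüppel-like factor, fell from 21.3 and 23.9 CPM to 9.12 and 8.31 CPM in WT and from 24.8 and 28.6 CPM to 11.2 and 13.7 CPM in KO. Its log2 ratios were -1.37 (adjusted p = 0.000402) and -1.1 (adjusted p = 0.00101). RFX4, a factor of neural progenitors, fell by 0.65 on the log2 scale in WT (adjusted p = 0.00064) and by 0.59 in KO (adjusted p = 0.00115). In KO it passed the threshold in several but not all other fits. It was at -0.603 with DESeq2 (adjusted p = 8.76e-06) and at -0.677 in edgeR with upper quartile scaling (adjusted p = 0.000775). HOPX, a homeodomain-only protein known from radial glia, had log2 ratios of -0.70 in WT (adjusted p = 0.0149) and -0.55 in KO (adjusted p = 0.0326), and TOX3 had -0.64 (adjusted p = 0.0138) and -0.47 (adjusted p = 0.0454). HOPX in KO passed the threshold in edgeR with upper quartile scaling (-0.635, adjusted p = 0.0174). It also did in limma on FPKM with a pseudocount of 1 (-0.662, adjusted p = 0.0283). HES5, a Notch effector, was at most 1.08 CPM and passed the threshold in KO alone, with -1.95 (adjusted p = 0.0303), against -0.87 in WT (adjusted p = 0.213). Whether the 2 genotypes differed for HES5 was not resolved by the interaction test, which called 0 genes. The smaller calls depended on the tool and on single libraries. In KO, HES5, TOX3 and HOPX lost their calls with DESeq2 (adjusted p = 0.153, 0.185 and 0.0891), and TOX3 and HOPX also with edgeR on the 4 KO libraries alone (0.0726 and 0.0545). HES5 in KO was lost without any 1 KO library (edgeR adjusted p from 0.06 to 0.175), and TOX3 in KO without any 1 library other than KO control replicate 1 (0.0522 to 0.215). TOX3 in WT was lost without WT TGF-β replicate 2 (0.0859), and HOPX without WT control replicate 2 (0.0574) or WT TGF-β replicate 1 (0.0949), and in KO without either control replicate (0.111 and 0.0782) or TGF-β replicate 1 (0.188). GLI2 was under the threshold on FPKM, at 0.29 in WT and 0.38 in KO with a pseudocount of 1 and at 0.40 and 0.54 with 0.1, each with a limma adjusted p under 0.05, and in WT was at 0.57 without WT control replicate 1, at 0.53 without WT TGF-β replicate 2 and at 0.53 with upper quartile scaling, and RFX4 in WT was at -0.59 without WT control replicate 2.

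**Figure D4:**
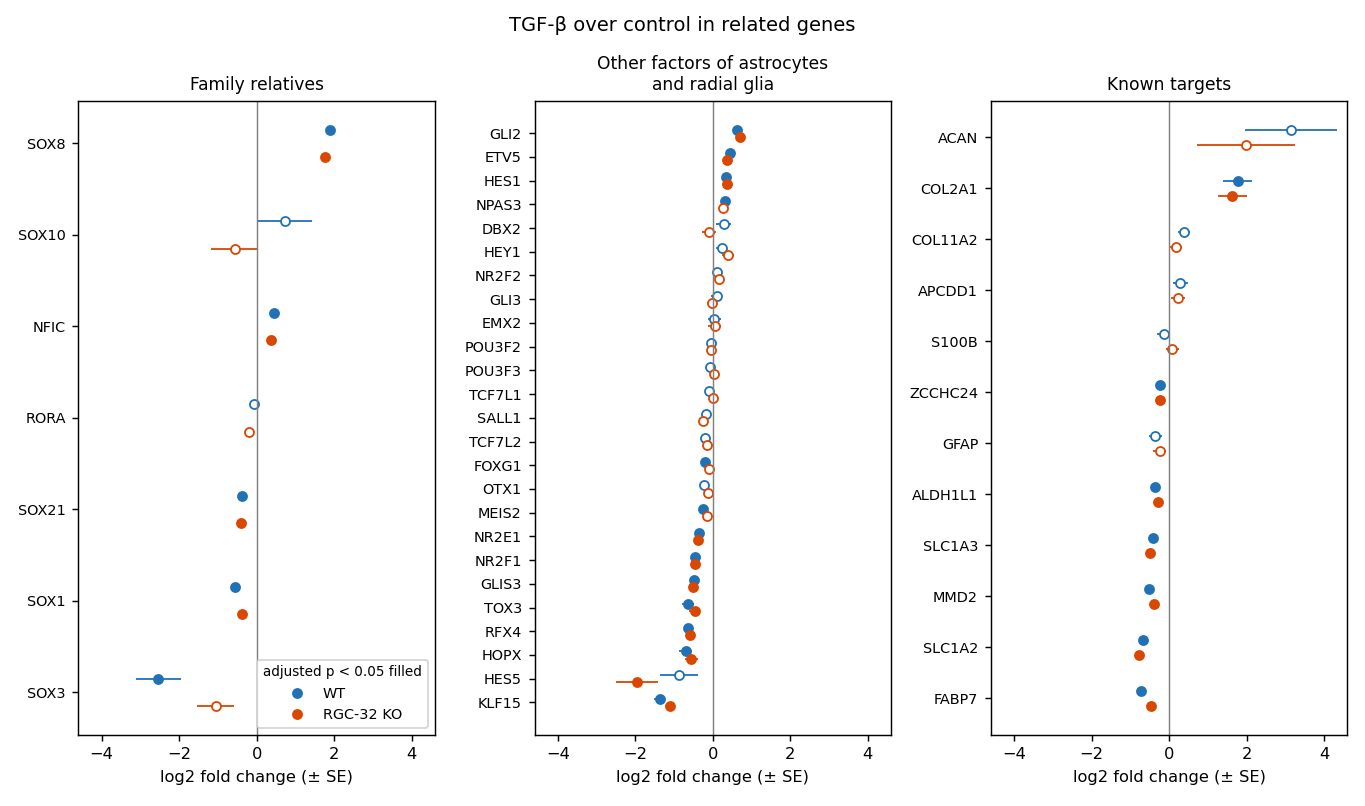
Log2 ratio of TGF-β over control, with SE, in WT and RGC-32 KO for the family relatives, the other transcription factors and the known targets, ordered by the WT value, with filled points for an adjusted p under 0.05. Of the filled WT points of their panels, SOX8 at 1.89 and COL2A1 at 1.77 lie farthest right, with the open point of ACAN beyond COL2A1, and SOX3, KLF15 and FABP7 lie farthest left.

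Genes known as targets of SOX9, NFI or PAX6 factors were read last. Of 12 such genes, 1 rose and 6 fell in each genotype at an adjusted p under 0.05 in edgeR, and their median log2 ratios were -0.29 and -0.24. Among all genes tested, 18.6% rose and 14.3% fell in WT, and 16.6% rose and 11.8% fell in KO. Of the 12, 6 are also among the astrocyte markers described next (GFAP, FABP7, SLC1A3, SLC1A2, ALDH1L1 and S100B). COL2A1, the cartilage collagen that SOX9 activates in chondrocytes, was the gene that rose. It was at 25.8 and 19.3 CPM in WT control and 55.3 and 98.3 CPM in WT TGF-β libraries, and at 23.2 and 10.8 CPM in KO control and 45.0 and 59.9 CPM in KO TGF-β libraries. Replicates lay far apart, but all 4 TGF-β libraries were above all 4 controls. Its log2 ratio was 1.77 in WT (SE 0.37, adjusted p = 0.00895) and 1.63 in KO (SE 0.38, adjusted p = 0.0166). The WT call was lost without control replicate 2 (edgeR adjusted p = 0.0566) or TGF-β replicate 2 (0.0556), and the KO call without control replicate 2 (0.0855) or TGF-β replicate 2 (0.0896). FABP7, a lipid-binding protein of radial glia, fell from 170 and 173 CPM to 101 and 107 CPM in WT, a log2 ratio of -0.72 (SE 0.08, adjusted p = 0.000566), and had -0.48 in KO (SE 0.08, adjusted p = 0.00358). In limma on FPKM the KO value was past the threshold, at -0.651 with a pseudocount of 1 (adjusted p = 0.0025) and -0.654 with 0.1 (adjusted p = 0.002). SLC1A2, the glutamate transporter GLT-1, had -0.68 in WT (SE 0.10, adjusted p = 0.00225) and -0.79 in KO (SE 0.10, adjusted p = 0.00154), and its WT value was -0.57 without WT TGF-β replicate 1. ACAN, another cartilage target, ranged from 0 to 27.3 CPM and did not pass the test.

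Summed marker levels of several cell types differed between control and TGF-β libraries. Markers are counted below as risen or fallen at an adjusted p under 0.05 in edgeR. At that level 18.6% of all genes rose and 14.3% fell in WT, and 16.6% rose and 11.8% fell in KO. The summed level of the 10 astrocyte markers was 4546 to 4796 CPM in WT control and 3499 to 3626 CPM in WT TGF-β libraries, and 5227 to 5878 CPM and 4313 to 4606 CPM in KO, where 7 of 10 fell in WT and 6 of 10 in KO and 1 rose in each. Ependymal markers, from cells that also express SOX2 and SOX9, fell in 9 of 9 tested genes in WT and 8 of 9 in KO, with sums of 530 to 621 CPM in WT control and 334 to 368 CPM with TGF-β, and 585 to 651 CPM and 403 to 426 CPM in KO. The members of both lists thus mostly fell. Meningeal fibroblast markers summed to 5444 to 6809 CPM in WT control and 10219 to 11682 CPM with TGF-β, and to 4623 to 4884 CPM and 7976 to 7992 CPM in KO, where 3 of 11 rose and 2 fell in each genotype. The oligodendrocyte lineage sum was 229 to 266 CPM in WT control and 461 to 545 CPM with TGF-β, and 221 to 262 CPM and 374 to 491 CPM in KO, with 1 of 8 markers up in WT and 2 in KO and 1 down in each. COL1A1, COL1A2 and PDGFRB were the meningeal markers that rose, while DCN was among those that fell in both genotypes. In the oligodendrocyte list CSPG4 rose, from 38.5 and 25.4 CPM to 257 and 302 CPM in WT and from 33.9 and 24.1 CPM to 153 and 220 CPM in KO, PDGFRA fell in both genotypes, and OLIG1, OLIG2 and MBP did not pass the test. Neuronal markers summed to 305 to 316 CPM in WT control and 378 to 397 CPM with TGF-β, and to 280 to 338 CPM and 355 to 385 CPM in KO. Of 5 tested, 2 (TUBB3 and MAP2) rose in each genotype and 0 fell. Of 12 microglial markers 0 passed the test, of 10 proliferation genes 2 fell in WT and 0 in KO, and of the tested markers in these lists 0 were under 1 CPM in every library. The part of these cell types in the changes of SOX9, SOX2 and LHX2 was not tested.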

How the data were processed

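RNA was sequenced from primary neonatal astrocytes in 8 libraries, grouped by genotype and treatment from their deposited labels. The authors aligned unstranded reads with STAR in the VIPER pipeline (build mm10) and deposited raw counts, whole numbers of reads for each gene symbol with no normalization; the counter, the annotation and the rule for leaving genes out are not given in the sources used here. The authors also deposited FPKM values, scaled by Cufflinks to transcript length and library size, which were used here for levels between genes and for an alternative with log2(FPKM + 1) in limma. Deposited tables of the authors' own DESeq comparisons (fold changes and p-values) were not used. Among the symbols of the count table, 21 had been turned into dates, with 0.22% of the counts, and were kept unnamed.

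Counts were filtered with filterByExpr, scaled by the trimmed mean of M values (TMM) and fitted with edgeR 4.0.16 (R 4.3.3) with a mean for each group, so that all 8 libraries share 1 estimate of the spread. Contrasts were tested by quasi-likelihood with Benjamini-Hochberg adjustment over all 13509 genes, and each SE is the log2 fold change divided by the square root of F. Alternatives were DESeq2 1.42.0, limma-voom (limma 3.58.1), other scalings, filters and thresholds, the 4 libraries of a comparison alone, the replicate number as a block, FPKM with pseudocounts of 1 and 0.1, and each library left out. The script was tested on simulated counts for TGF-β against control in WT, with 50 genes changed at each of several sizes. In edgeR at an adjusted p under 0.05, 4% of log2 changes of 0.3 and 4% of 0.4 were recovered. For 0.6 it was 62% and for 1 it was 88%, with 10 false calls. Far fewer genes were changed there than were called in WT here, so recovery in these data may differ. A factor that did not pass is thus not shown to be unchanged. The members and gene lists were chosen with earlier results of these data known. Genes named outside the 9 are the targeted gene, the members of 3 related lists past the threshold for TGF-β against control in either genotype, and, after their values were seen, SOX2OT, NFIC, SOX1, SOX21, RORA, SOX10, LHX9, ACAN and the cell type markers; 1 gene of these lists is not reported here, and its list was counted without it; genes of similar profile were to be named for members past the threshold, of which there were 0. Whether the biological replicates came from separate litters is not stated, so p-values measure the spread between these libraries. Libraries held 14920561 to 18956038 counts, and replicates differed by more than counting error (chi-square per degree of freedom from 6.26 to 10.4). Because the reads carry no strand, genes sharing exon bases with a gene on the other strand cannot be separated there: 1.86% of the NFIX exon bases are shared with G430095P16Rik, and under 0.5% for any other member. No stretch of 50 bases was shared between a member and its SOX or NFI relatives. Coordinates come from the reference annotation (GRCm38), and promoter sequences and starts from RefSeq (GRCm38.p6).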

Additional observations from a re-analysis of the deposited data

Results flagged for a closer look

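ZBTB20 was singled out because its response to TGF-β differed between the genotypes by a test of the difference itself, at an unadjusted p under 0.05. The difference in log2 fold change, WT minus KO, was 0.545 (SE 0.15, edgeR interaction adjusted p = 1.00), and it lay between 0.37 and 0.64 over the alternatives, with adjusted p values from 0.781 to 1.00. Both WT TGF-β libraries were above both WT controls and both KO TGF-β libraries below both KO controls, a pattern of opposite, non-overlapping responses that 1.4% of all genes showed in one or the other direction. It fails the correction over all genes.

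RORB was singled out by the same test, with a difference of 0.736 (SE 0.26, edgeR interaction adjusted p = 1.00) that lay between 0.17 and 0.98 over the alternatives. Its WT groups overlapped, and its counts were the lowest of the 9 factors.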

How the results depend on the processing

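The count of factors past the threshold was 0 in all comparisons under all alternatives that kept the fold threshold; without it the count is 3 in WT and 2 in KO for TGF-β against control. The count with an adjusted p under 0.05 in KO was 5 with upper quartile scaling, 5 on FPKM with a pseudocount of 1 and 4 with 0.1, against 2. The shares over all genes in KO moved as well. At that level 22.9% fell and 8.4% rose on FPKM with a pseudocount of 1, and 22.7% and 8.42% with 0.1. With upper quartile scaling 18.6% fell and 12.1% rose, against 11.8% and 16.6% in the main fit. With a pseudocount of 0.1 the median of all genes shifted to -0.11 on the log2 scale in both genotypes. In WT the count fell to 1 without WT TGF-β replicate 1, where SOX9 and LHX2 lost the call, and it ranged from 1 to 3 with 1 library left out. The replicate number as a block gave 3 in WT and 2 in KO and changed no call of the 9 factors, although it ended those of HES5 (adjusted p = 0.0609) and TOX3 (0.0795) in KO; same-numbered control and TGF-β libraries deviated in opposite directions (r = -0.343 in WT and -0.348 in KO over 13509 genes), while between genotypes the correlation was 0.491 for the controls and 0.253 for the TGF-β libraries, so the numbers do not pair them throughout. With the numbers crossed, chosen after seeing the data, the block gave 5 in WT and 3 in KO. Of all genes it had 22.9% up and 18.7% down in WT, against 18.6% and 14.3% without a block. In KO it had 21.2% up and 16.2% down, against 16.6% and 11.8%. The crossed block left 0 of the 9 in both genotype comparisons. Between genotypes with TGF-β it gave 103 genes higher and 20 lower in WT at an adjusted p under 0.05, against 4 and 3 without a block. The order by level kept 5 of 9 places when counts were divided by the length of all annotated exons, where ZBTB20 and not RORB was lowest.

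Direction turned for the following values. On FPKM, RORB for TGF-β in WT was -0.019 with a pseudocount of 1 and -0.047 with 0.1, NFIX for TGF-β in KO -0.0113 and -0.0115, and, between genotypes with TGF-β, NFIX was -0.0257 and -0.0261 and RORB -0.00401 and -0.0134; NFIX there was -0.0109 with upper quartile scaling. The interaction of SOX2 was 0.00081 with limma-voom and 0.00074 with at least 10 counts in every library. With 1 library left out, the ranges that crossed 0 were -0.015 to 0.492 for RORB and TGF-β in WT, -0.159 to 0.0027 for PAX6 and TGF-β in KO, -0.208 to 0.0276 for NFIB and -0.0017 to 0.0738 for LHX2 between genotypes without TGF-β, -0.239 to 0.0163 for NFIA, -0.064 to 0.122 for NFIB, -0.0197 to 0.0217 for NFIX and -0.166 to 0.341 for RORB between genotypes with TGF-β, and -0.108 to 0.110 for SOX2 and -0.0502 to 0.237 for NFIA in the interaction. The causes were not tested.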
